A study of Mus musculus with 6 samples.

Results

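The calpain system of the newborn mouse lens was described through 8 genes, taken by their symbols from the 22298 entries of the deposited expression table. They were Capn1, Capn2, Capn3, Capn5, Capn7 and Capn10, which encode catalytic calpains, Capns1, which encodes the shared small subunit, and Cast, which encodes the inhibitor calpastatin. RNA was sequenced from ocular lenses of Fyco1-/- mice and of wild-type (WT) mice, both of strain C57BL/6 and both at postnatal day 0. Each genotype had 3 libraries, lettered A, B and C, and each library was made from 10 lenses, so every value is a pool and not a single animal. The labels call the pools biological replicates. Values of the 3 pools of a genotype are given in the order A, B, C throughout. The allele and the extent of the Fyco1 deletion were not given in the sources used here. The study asked what happens to lens development when Fyco1, an adaptor that helps autophagosomes travel along microtubules, is lost.

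Calpains are cysteine proteases of the cytosol that are switched on by calcium and cut their substrates at a limited number of places. The classical calpains pair a large catalytic subunit, encoded by Capn1 or Capn2, with the small subunit encoded by Capns1, and calpastatin binds and blocks the calcium-bound enzyme. Capn3 is best known as the calpain of skeletal muscle, but in rodents the lens makes its own splice form, Lp82, and calpain cleavage of crystallins and of the fibre cytoskeleton accompanies lens maturation and rodent cataract.

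The Capn3 gene (ENSMUSG00000079110, GRCm38 chromosome 2, 120456019 to 120504913, plus strand) has 6 coding transcripts in GENCODE M21, which start from places far apart. The longest, of 821 codons, starts at 120463579. A form of 709 codons starts 13341 bases farther downstream, at 120476920, from a different first exon, and leaves out exons 1, 6, 15 and 16 of the longest form. The table gives 1 value per gene, summed over such forms, so the lens and muscle forms were not separated. The bases in front of both starts are printed because Capn3 was the most abundant member, and those in front of Capn1 because Capn1 was the only member called between genotypes with limma. They come from the RefSeq promoter table of GRCm38.p6, which holds 7 of the 8 members (all but Capn5), cut short where a GENCODE exon of the gene begins. Capitals mark matches, on either strand, to the letters TATAAA (the core promoter box of many genes), TGCTGA (the core of the Maf recognition element), GAANNTTC (the heat shock element core), the palindromic MEF2-type A/T box (any 4 bases between its outer triplets, as in the capitals of the first window) or CAGCTG (an E-box used by myogenic factors).
Capn3 upstream start, chr2:120463343-120463578, plus strand: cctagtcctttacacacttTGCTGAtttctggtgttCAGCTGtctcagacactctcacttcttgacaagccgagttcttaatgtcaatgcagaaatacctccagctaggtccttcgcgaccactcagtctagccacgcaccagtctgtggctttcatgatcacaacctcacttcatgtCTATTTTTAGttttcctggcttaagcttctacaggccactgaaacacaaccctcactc
Capn3 downstream start, chr2:120476659-120476908, plus strand: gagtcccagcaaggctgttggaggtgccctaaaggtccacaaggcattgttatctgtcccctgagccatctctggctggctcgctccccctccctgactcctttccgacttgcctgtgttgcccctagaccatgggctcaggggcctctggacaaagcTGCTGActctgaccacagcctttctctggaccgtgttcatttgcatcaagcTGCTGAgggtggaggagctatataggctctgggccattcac
Capn1 upstream start, chr19:6015898-6016075, minus strand: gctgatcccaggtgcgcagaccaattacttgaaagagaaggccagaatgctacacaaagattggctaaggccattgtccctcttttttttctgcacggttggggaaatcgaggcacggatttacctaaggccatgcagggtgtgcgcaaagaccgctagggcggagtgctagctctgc

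The window of the upstream Capn3 start held 1 match to the MEF2-type box, 1 to CAGCTG and 1 to TGCTGA. Of all RefSeq promoter windows of that length, 2.96%, 12.5% and 15.4% hold those letters. The window of the downstream start held 2 matches to TGCTGA, which 16.1% of windows of that length hold at least once, and none to the other motifs. The Capn1 window held none of the 5 motifs. These are matches of letters and say nothing on which factors bind. Only the exact letters were searched, so variants, such as the TATA-like stretch near the end of the downstream window, were not marked. The G and C content was 46.6% before the upstream Capn3 start, 57.6% before the downstream one and 52.8% before Capn1.

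All values are FPKM, fragments scaled to the length of the gene and to the size of the library, so levels of genes can be compared within a library. Comparisons between libraries also depend on scaling, because FPKM does not correct for differences in composition. Median-of-ratios factors of these values ran from 0.961 in Fyco1-/- C to 1.046 in WT A. Read counts are not part of the table, but the steps between its smallest values put the Fyco1-/- libraries at an estimated 18.7 to 19.4 M reads and the WT libraries at 16.9 to 19.9 M reads (M, 1e6 reads). Between 70.2% and 71.7% of all FPKM in a library belonged to crystallin genes, and the lens fibre markers were present throughout: Cryaa stood at 117882 to 122145 FPKM in Fyco1-/- and 114749 to 119181 FPKM in WT libraries. Fyco1 itself measured 4.61, 4.59 and 4.87 FPKM in the Fyco1-/- pools, against 5.40, 5.21 and 5.11 FPKM in the WT pools. That difference was not called (log2 fold change -0.15, limma adjusted p = 0.273), so the level of Fyco1 does not settle the genotype labels. Genotypes were compared with limma on log2(FPKM + 0.5) over the 12001 genes with a mean of at least 0.5 FPKM, and a gene was called at an adjusted p under 0.05. All 8 members passed that filter. Of the marker genes tested, 1 of 10 for lens fibre was called higher and 3 lower. For lens epithelium 2 of 6 were called lower, and for skeletal muscle 1 of 7. None of 6 for blood or of 8 for vessel and mesenchyme was called. Of all tested genes, 3.42% were called higher and 5.02% lower.

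The level of the members spanned more than 2 orders of magnitude, and Capn3 led in every library. Capn3 averaged 514 ± 42.9 FPKM in Fyco1-/- lenses and 463 ± 7.52 FPKM in WT lenses (mean ± SD, n = 3 libraries each, as for all means). In WT lenses it ranked 95 among the tested genes, above 99.2% of them, and in Fyco1-/- lenses it ranked 79. Capns1 came next, with 101 ± 5.51 FPKM in Fyco1-/- and 113 ± 4.17 FPKM in WT lenses, followed by Capn2 with 27.5 ± 0.349 FPKM in Fyco1-/- and 28.8 ± 0.664 FPKM in WT lenses. The other 5 members averaged between 2.92 and 10.4 FPKM. Capn3, Capns1, Capn2, Capn7, Capn5 and Cast kept this descending order in both genotypes, and the ranges of neighbours in it did not overlap within a genotype. The last places differed: the Fyco1-/- libraries had Capn10 above Capn1 (3.19 to 3.28 against 2.80 to 2.99 FPKM), whereas the WT libraries had Capn1 above Capn10 (3.74 to 4.67 against 3.15 to 3.57 FPKM). In WT lenses Capn1 also overlapped with Cast (4.48 to 5.54 FPKM), its next higher neighbour.

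**Figure D1:**
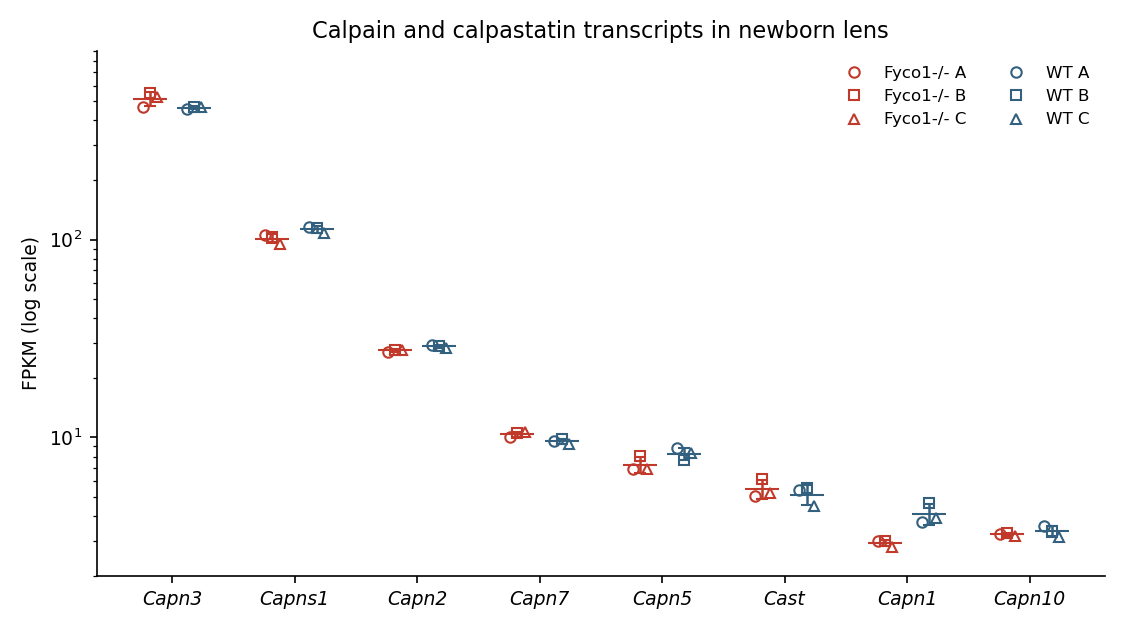
FPKM of the 8 genes on a log axis, ordered by their WT mean; open symbols are libraries, red for Fyco1-/- and blue for WT, and bars give the mean and SD of 3 libraries. Capn3 lies at 455 to 549 FPKM in all 6 libraries and Capn1 and Capn10 lie at the bottom, in a different order in each genotype.

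Of the 8 members, 1 fell in Fyco1-/- lenses and none rose, where 8.43% of all tested genes were called (5.02% lower and 3.42% higher). Scaling matters for that balance: 40.5% of the calls were higher as reported and 57.0% with median-of-ratios scaling, under which Capn1 was still the member called (log2 -0.38, limma adjusted p = 0.0364). The member that fell was Capn1. The median log2 fold change of the members was -0.05, beside -0.04 for all 12001 tested genes, and the median size without sign was 0.13 beside 0.12. At an unadjusted p under 0.05 there were 3 members (Capn1 and Capns1 lower, Capn3 higher), and 2930 genes in all. By the adjusted p in the authors' deposited table, 1 member was called lower (Capn1) and 1 higher (Capn3), where 9.37% of 13066 genes with an adjusted p were called (4.15% lower and 5.22% higher). By values that did not overlap between genotypes, 3 members lay lower (Capn1, Capn2 and Capns1) and 1 higher (Capn7), where 29.7% of tested genes did not overlap (18.6% lower and 11.1% higher).

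**Figure D2:**
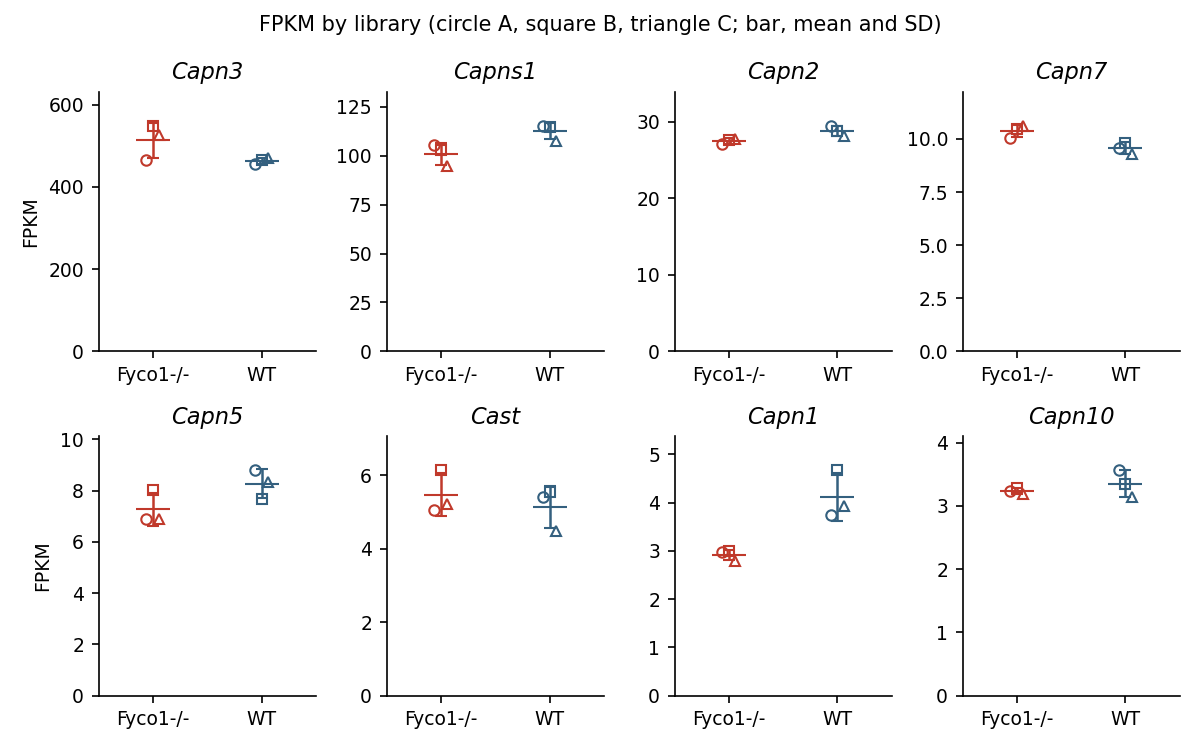
FPKM of each gene by library on axes from 0, with Fyco1-/- left of WT; circles, squares and triangles are libraries A, B and C, and bars give the mean and SD. The 3 Fyco1-/- values of Capn1 lie at 2.80 to 2.99 FPKM, below the WT values of 3.74 to 4.67 FPKM.

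Capn1 (ENSMUSG00000024942, GRCm38 chromosome 19, 5988545 to 6015897, minus strand) encodes the large subunit of the calpain active at micromolar calcium. It measured 2.98, 2.99 and 2.80 FPKM in the Fyco1-/- pools, against 3.74, 4.67 and 3.93 FPKM in the WT pools. The genotypes did not overlap, and WT B stood above the other WT libraries. The WT mean was 1.41 times the Fyco1-/- mean, and the log2 fold change was -0.43 (SE 0.10, 95% interval -0.65 to -0.20, limma adjusted p = 0.0286). The authors' deposited table gives a log2 fold change of -0.37 and an adjusted p of 0.0457. The call was lost with no filter on low values (adjusted p = 0.0745), without WT B (log2 -0.34, adjusted p = 0.106), without WT C (adjusted p = 0.0505) or without any 1 Fyco1-/- library (adjusted p = 0.0545, 0.0707 and 0.0869 without A, B and C). WT B also held the highest summed level of the 11 skeletal muscle markers, 57.5 FPKM, against 13.7 and 11.97 FPKM in WT A and C and 6.31 to 7.55 FPKM in the Fyco1-/- libraries. The lens epithelium markers (6 genes) summed to 404 to 434 FPKM in Fyco1-/- and 470 to 522 FPKM in WT libraries. Sfrp1 was the largest part of that sum, with a mean of 244 FPKM in Fyco1-/- and 285 FPKM in WT lenses. Sfrp1 and Pax6 were called lower, where 5.02% of all tested genes were, and the other 4 were not called. The log2 fold change was negative for 5 of the 6 and positive for Gja1 (0.22). The part of muscle or epithelium RNA in the Capn1 difference was not tested. In whole lenses fewer cells of a type and less RNA per cell cannot be told apart. Capn1 rested on an estimated 176 to 311 reads per library, and 394 of its 3344 exon bases overlap the antisense gene Gm10814, which is listed at 0.0549 to 0.136 FPKM in Fyco1-/- and 0.0605 to 0.155 FPKM in WT libraries.

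Capn2 (GRCm38 chromosome 1, 182467260 to 182517608), the large subunit of the calpain that needs millimolar calcium in the test tube, was the more abundant classical calpain. It measured 27.1, 27.6 and 27.8 FPKM in the Fyco1-/- pools, against 29.5, 28.8 and 28.1 FPKM in the WT pools. All 3 Fyco1-/- values lay under the WT values, by a small distance. The difference was not called (log2 fold change -0.07, 95% interval -0.17 to 0.04, limma adjusted p = 0.435). Within a library, the ratio of Capn2 to Capn1 was 9.10, 9.24 and 9.92 in the Fyco1-/- pools, against 7.89, 6.16 and 7.17 in the WT pools. The ratio was thus higher in each Fyco1-/- library than in any WT library. As Capn2 differed little between genotypes, this mostly restates the lower Capn1 values.

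Capns1 (GRCm38 chromosome 7, 30186936 to 30198811), whose product stabilises both classical large subunits, measured 105, 103 and 94.8 FPKM in the Fyco1-/- pools, against 115, 115 and 108 FPKM in the WT pools. The Fyco1-/- values lay below all WT values, but the difference was not called (log2 fold change -0.16, SE 0.05, limma adjusted p = 0.0829). It was called with quantile normalization (adjusted p = 0.0406). Capns1 exceeded the summed level of Capn1 and Capn2 in every library. It was 3.51, 3.35 and 3.10 times that sum in the Fyco1-/- pools and 3.47, 3.42 and 3.36 times in the WT pools, with overlapping ranges.

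Cast (GRCm38 chromosome 13, 74692368 to 74808810) measured 5.04, 6.14 and 5.22 FPKM in the Fyco1-/- pools, against 5.40, 5.54 and 4.48 FPKM in the WT pools. The genotypes overlapped and no difference was called (log2 fold change 0.08, 95% interval -0.15 to 0.31, limma adjusted p = 0.683). Calpastatin stood above Capn1 in mean FPKM in both genotypes and below Capn2 in every library. Cast stood at 0.168, 0.200 and 0.171 of the summed Capn1 and Capn2 FPKM in the Fyco1-/- pools, against 0.163, 0.165 and 0.140 in the WT pools. The 3 Fyco1-/- ratios lay above the WT ratios, with a gap between Fyco1-/- A and WT B that was smaller than the SD of either genotype (0.0182 in Fyco1-/- and 0.0140 in WT). Of the 11470 exon bases annotated for Cast, 834 overlap the gene Erap1 on the opposite strand. Its longest transcript, of 5141 bases, shares stretches of at least 100 bases at 95% identity or more with transcripts of 103 other genes, Erap1 included. The stretch shared with Erap1 was 834 bases long, and the longest shared with each other gene was 100 to 167 bases. Reads of Cast may thus have been split between genes, and its level is uncertain.

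**Figure D3:**
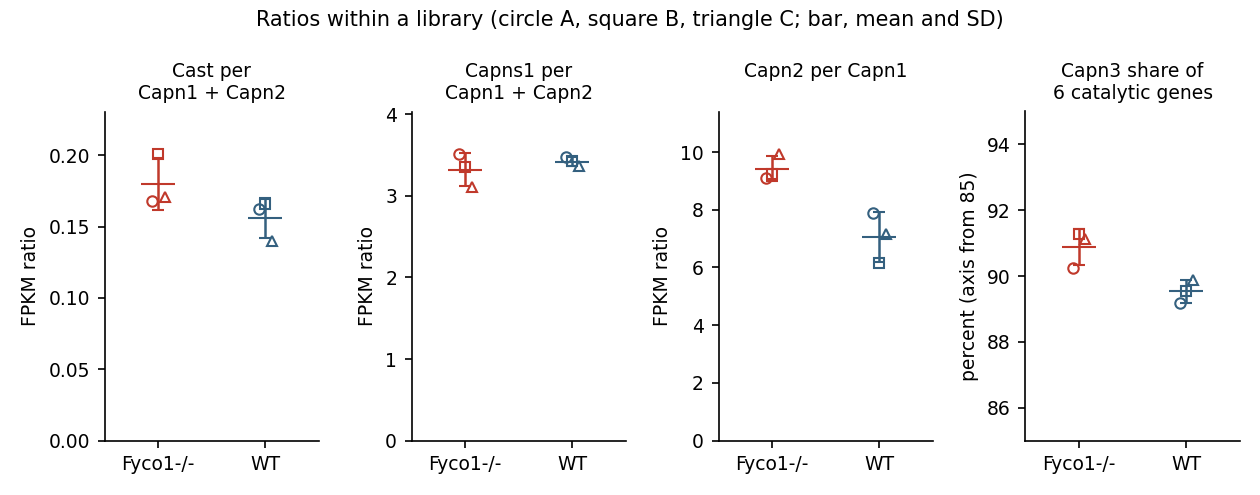
Ratios formed within each library, with Fyco1-/- left of WT; circles, squares and triangles are libraries A, B and C, bars give the mean and SD, and the axis of the Capn3 share starts at 85%. The Capn2 to Capn1 ratio lies at 9.10 to 9.92 in Fyco1-/- and 6.16 to 7.89 in WT libraries, while the Capns1 ratio overlaps.

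Capn3 measured 466, 549 and 527 FPKM in the Fyco1-/- pools, against 455, 465 and 469 FPKM in the WT pools. Fyco1-/- B and C lay above every WT library, and Fyco1-/- A lay within the WT range. The log2 fold change was 0.15 (SE 0.05, 95% interval 0.02 to 0.27) and was not called (limma adjusted p = 0.134). The authors' deposited table, by contrast, gives 0.19 with an adjusted p of 0.0104, which is past the same threshold. In limma the gene was called with quantile normalization (adjusted p = 0.0447), and without Fyco1-/- A (log2 0.21, adjusted p = 0.00532). Capn3 rested on an estimated 38684 to 53428 reads per library. Its overlap of 386 exon bases with Ganc, on the same strand, involves a gene at 1.27 to 1.298 FPKM in Fyco1-/- and 1.38 to 1.48 FPKM in WT libraries.

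Among the 6 catalytic members, Capn3 supplied 90.3%, 91.3% and 91.1% of the summed FPKM in the Fyco1-/- pools, against 89.2%, 89.5% and 89.9% in the WT pools. The share was higher in each Fyco1-/- library, by 1.35 percentage points on average. Against all transcripts that are not crystallins, Capn3 made up 0.236% of the FPKM in Fyco1-/- and 0.212% in WT lenses. Markers of skeletal muscle, where Capn3 is also strongly expressed, lay far below Capn3: Acta1, the skeletal muscle actin gene, measured 0.778 to 1.69 FPKM in Fyco1-/- and 3.49 to 21.7 FPKM in WT libraries, and Ttn, which encodes the giant muscle protein titin, stood at 0.0283 to 0.0330 FPKM in Fyco1-/- and 0.0231 to 0.0783 FPKM in WT libraries. WT B, with the highest summed muscle markers, had 465 FPKM of Capn3, between WT A and C. The part of muscle RNA in the Capn3 level was not tested.

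None of the 3 calpains that lack the calcium-binding penta-EF-hand domain was called. Capn7 (GRCm38 chromosome 14, 31336638 to 31371986), whose product binds the ESCRT-III membrane-cutting machinery, measured 10.1, 10.5 and 10.6 FPKM in the Fyco1-/- pools, against 9.60, 9.83 and 9.27 FPKM in the WT pools. Its Fyco1-/- values were all the higher ones, yet the difference was not called (log2 fold change 0.11, limma adjusted p = 0.305). Capn5 (GRCm38 chromosome 7, 98121559 to 98178274), mutated in an inherited human disease of the retina and vitreous, measured 6.89, 8.03 and 6.91 FPKM in the Fyco1-/- pools, against 8.80, 7.68 and 8.32 FPKM in the WT pools. Its ranges overlapped and it was not called (log2 fold change -0.17, 95% interval -0.36 to 0.01, limma adjusted p = 0.236). Capn10 (GRCm38 chromosome 1, 92934376 to 92947941), studied mainly in connection with human type II diabetes, measured 3.24, 3.28 and 3.19 FPKM in the Fyco1-/- pools, against 3.57, 3.35 and 3.15 FPKM in the WT pools. All Fyco1-/- values fell inside the WT range (log2 fold change -0.04, 95% interval -0.24 to 0.15, limma adjusted p = 0.818). Retinal markers (8 in the table) summed to 0.436 to 2.01 FPKM in Fyco1-/- and 0.640 to 1.16 FPKM in WT libraries.

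**Figure D4:**
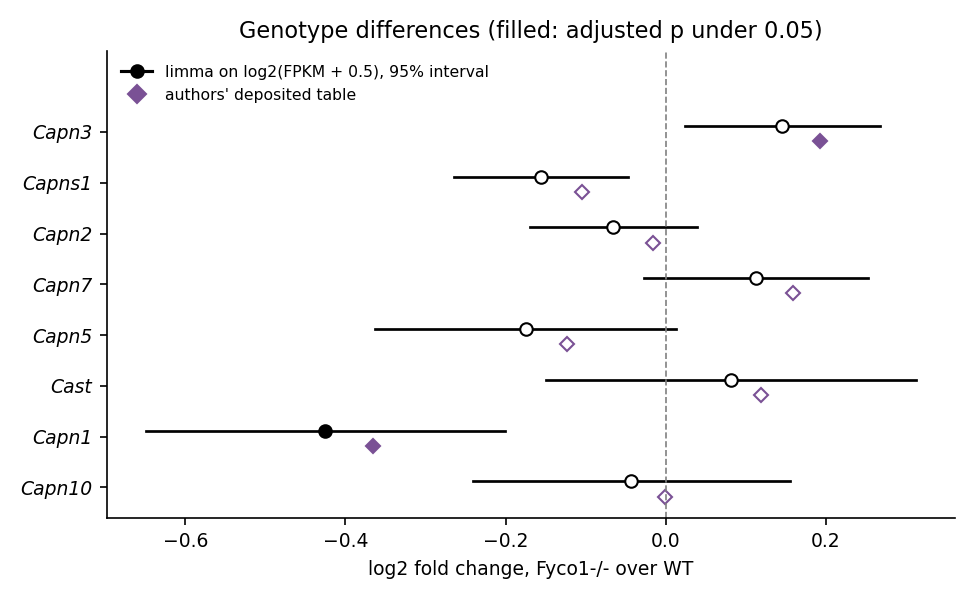
Log2 fold change of Fyco1-/- over WT for each gene: circles with 95% intervals are from limma on log2(FPKM + 0.5), diamonds are the authors' deposited values, and filled symbols have an adjusted p under 0.05. Capn1 (-0.43) is filled in both, and Capn3 (0.15 and 0.19) only in the authors' table.

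Of 10 other calpain symbols searched, 7 were in the table and 2 passed the filter. Capn15 measured 1.56 to 1.85 FPKM in Fyco1-/- and 1.501 to 1.88 FPKM in WT libraries (limma adjusted p = 0.955), and Capn8 measured 0.299 to 0.678 FPKM in Fyco1-/- and 0.578 to 0.895 FPKM in WT libraries (limma adjusted p = 0.439). Capn11 was listed at 0 in all 3 Fyco1-/- libraries and at 0.111 to 0.115 FPKM in WT libraries, which is about 5.2 to 6.2 estimated reads. Capn6 was listed at 0.0117 FPKM in Fyco1-/- A and at 0 in B and C, against 0.0506 to 0.0902 FPKM in WT libraries. Neither passed the filter, so they were not tested. Capn9, Capn12 and Adgb did not pass it either, and their values overlapped between genotypes. Capn9 was listed at 0 to 0.137 FPKM in Fyco1-/- and 0.126 to 0.222 FPKM in WT libraries. Capn12 was listed at 0 in Fyco1-/- and 0 to 0.0528 FPKM in WT libraries, and Adgb at 0 to 0.0504 FPKM in Fyco1-/- and 0.0220 to 0.0477 FPKM in WT libraries.

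Genes whose proteins calpains are known to cut moved in both directions. Of 29 tested substrate genes, 4 rose and 3 fell, where 3.42% of all tested genes rose and 5.02% fell, and the median log2 fold change was 0.03 beside -0.04 for all tested genes. Crybb2, which encodes a beta crystallin, rose to 2712 FPKM in Fyco1-/-, against 1873 FPKM in WT lenses (log2 0.53, limma adjusted p = 0.00046). Cryab, which encodes a small heat shock protein of the lens, rose to 8303 FPKM in Fyco1-/-, against 7498 FPKM in WT lenses (limma adjusted p = 0.00961), and Tln2, which encodes the integrin-linked protein talin 2, to 7.79 FPKM, against 5.77 FPKM in WT lenses (limma adjusted p = 0.0162).

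Genes of calcium entry, storage and extrusion were examined because calcium switches calpains on. Of 25 tested, 3 rose and 1 fell, beside the same 3.42% and 5.02% of all tested genes, and the median log2 fold change was -0.08. Stim1, which encodes the calcium sensor of the endoplasmic reticulum that opens store-operated channels, measured 4.51, 5.79 and 6.74 FPKM in the Fyco1-/- pools, against 2.98, 3.05 and 3.08 FPKM in the WT pools (log2 fold change 0.79, limma adjusted p = 0.00388). Its Fyco1-/- values were both higher and more spread than its WT values. Itpr2, a gene for a calcium release channel of the same store, rose to 2.08 FPKM in Fyco1-/-, against 1.29 FPKM in WT lenses (limma adjusted p = 0.0335). Trpm3, a cation channel gene mutated in inherited human cataract, fell to 37.2 FPKM in Fyco1-/-, against 43.8 FPKM in WT lenses (limma adjusted p = 0.0127).

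The counts of the remaining lists stand beside the same 3.42% of all tested genes called higher and 5.02% called lower. Of 16 tested genes of calpain-linked membrane repair, 1 rose and none fell (median log2 0.04): Anxa2, which encodes a membrane-binding annexin, stood at 20.1 FPKM in Fyco1-/- and 15.3 FPKM in WT lenses (limma adjusted p = 0.0439). Of 14 tested ESCRT genes around Capn7, 1 rose and none fell (median log2 0.07): Tsg101, which encodes an ESCRT-I subunit, stood at 47.5 FPKM in Fyco1-/- and 41.9 FPKM in WT lenses (limma adjusted p = 0.0307). None of the 3 tested penta-EF-hand relatives, Sri, Pdcd6 and Pef1, was called (median log2 0.05, limma adjusted p = 0.42 to 0.859).

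The genes whose pattern over the 6 libraries was most like that of Capn1 were Dtx3, Plekhg1 and Espn, with Pearson r of 0.998, 0.997 and 0.992 of the log2 values among 5290 genes compared. With 6 libraries that fall into 2 genotypes, such values are a description of this set only. Dtx3 measured 31.2 to 32.3 FPKM in Fyco1-/- and 35.3 to 39.3 FPKM in WT libraries. As with Capn1 its highest value was in WT B, a likeness that its choice by correlation favours.

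**Figure D5:**
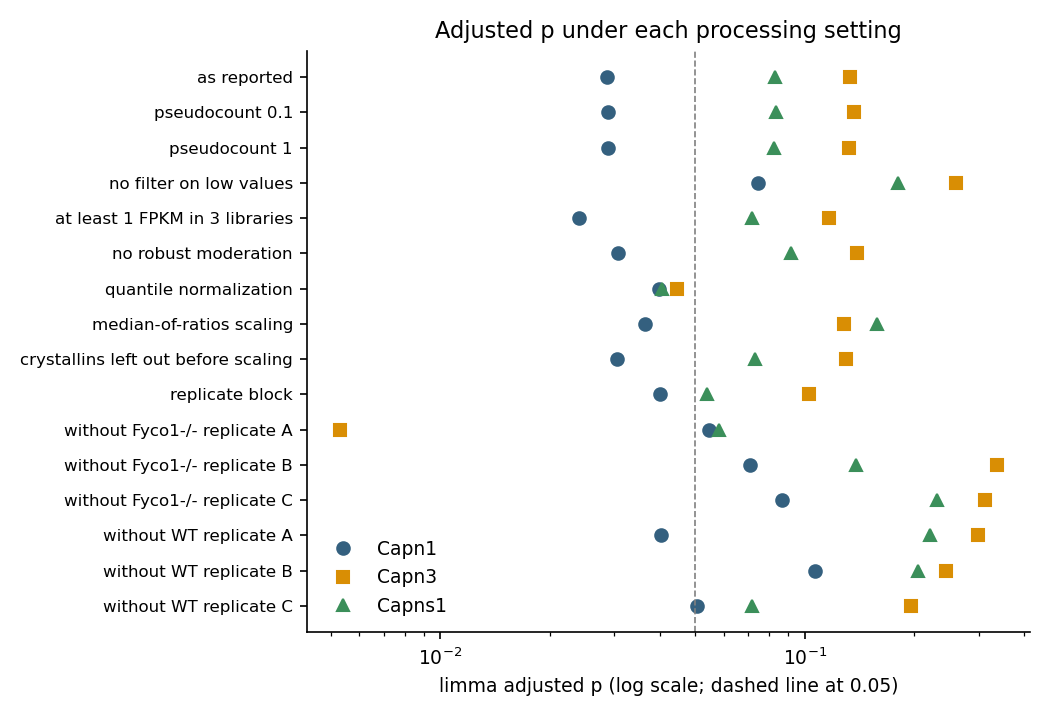
Limma adjusted p on a log axis for Capn1, Capn3 and Capns1 under the reported settings and each alternative, with a dashed line at 0.05. Capn1 lies between 0.024 and 0.106, and Capn3 passes only with quantile normalization (0.0447) and without Fyco1-/- A (0.00532).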

How the data were processed

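RNA of newborn mouse lenses was sequenced from 3 Fyco1-/- and 3 WT libraries. The authors deposited FPKM values per gene. The submitters' processing notes name GRCm38/mm10, STAR 2.5, HTSeq 0.6.1 and the authors' use of DESeq2, without saying which step each served, and the annotation and strand handling are not given in the sources used here. The log2 fold changes, p-values and adjusted p-values in the table were deposited by the authors and are quoted as theirs. From the FPKM values, genes averaging at least 0.5 FPKM were compared with limma 3.58.1 (R 4.3.3). The scale was log2(FPKM + 0.5), so changes of low genes are understated, and genotype was the only term. Variances were moderated with a trend and robustly, and two-sided p-values were adjusted by Benjamini-Hochberg over all 12001 tested genes. The fit was also run on simulated data with independent normal noise, which cannot test FPKM scaling or differences in composition. With 3 pools a side, exact permutation could reach no p under 0.1, and p-values measure the spread between these pools only.

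Spacing of low FPKM values, with GENCODE M21 exon lengths (93.3% of entries matched by symbol), gave an estimated depth. Only 40.0% of 32852 low values came out whole (tolerance 0.05 reads), so read numbers are approximate and no counting intervals are given. Near-identical stretches were searched with blastn 2.17.0. Exons of 4 further members overlap genes on the opposite strand. Capn2 shares 1717 of 6345 exon bases with Gm37885, and Capn10 639 of 4346 with 9430060I03Rik. Capns1 shares 202 of 2477 with Gm26810, and Capn7 116 of 4895 with Sh3bp5. Gm37885 and 9430060I03Rik have no listed values, and how reads of shared bases were assigned is not known. Same-lettered pools did not deviate together (correlation -0.03 for A, 0.028 for B and 0.027 for C), so the letters were not taken as pairs.

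The members and gene lists were chosen with earlier results of these data known. Named genes were the 8 members, Fyco1, other calpain genes that passed the filter, up to 4 called genes of each list by p, and the 3 genes of at least 5 FPKM most correlated with each called member; some genes that this rule names are not reported here. Capn6, Capn9, Capn11, Capn12, Adgb, the marker genes, the uncalled penta-EF-hand genes and the genes overlapping members were named after their values were seen. Ratios between members were not tested. Alternatives changed the pseudocount, filter, moderation, scaling, replicate block and libraries.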

Additional observations from a re-analysis of the deposited data

How the results depend on the processing

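The 12001-gene comparison had 1012 calls, and 568 with no filter on low values, 607 to 863 with 1 library left out (607 without WT B, 612 without WT A, 642 without Fyco1-/- C, 673 without Fyco1-/- B), and 929 with the replicate block, under which no member changed its call. The share of calls that were higher was 40.5%, and 57.0% with median-of-ratios scaling. The number of members called was 1, but 0 with no filter on low values, 3 with quantile normalization and 0 to 1 with 1 library left out. Capn1 was called in 9 of 15 alternatives. With no filter its log2 fold change stayed -0.43 while more genes were tested (adjusted p = 0.0745), and with 1 library left out it ran from -0.48 to -0.34 (adjusted p = 0.0403 to 0.106). Capn3 was called in 2 of 15, with quantile normalization (log2 0.17, adjusted p = 0.0447) and without Fyco1-/- A, within a range of 0.10 to 0.21 with 1 library left out. Capns1 was called in 1 of 15, with quantile normalization (log2 -0.19, adjusted p = 0.0406). The cause was not tested. Capn2, Capn5, Capn7, Capn10 and Cast were called in none of the 15. Capn10 turned to 0.016 with quantile normalization, and Cast to -0.0050 without WT C, within a range of -0.0050 to 0.13. The 4 ratios moved by less than their SD in the alternatives tried, but the Capns1 ratio difference (Fyco1-/- minus WT), -0.0970 as reported, was 0.0119 without Fyco1-/- C and -0.189 without Fyco1-/- A, and the Cast ratio difference, 0.0236 as reported, was 0.0132 without Fyco1-/- B and 0.0156 without WT C. Capn1 rested on an estimated 176 to 311 reads per library.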
